A study of Mus musculus with 2 samples.

Results

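Of 119502 consensus intervals of accessible chromatin, 345 lay in the genomic neighbourhoods of olfactory and vomeronasal receptor genes, and these 345 are described here. An interval was taken when it was autosomal and within 20 kb of a protein-coding gene named Olfr, Vmn1r or Vmn2r followed by a number in the GENCODE annotation of the mouse build mm10, provided that it did not cover a transcription start site (TSS) of another protein-coding gene. No count entered this choice. In all, 387 intervals fell within 20 kb, and 42 of them were left out because they covered the TSS of another gene. The rule rested on 1413 autosomal receptor genes, of which 1087 were Olfr, 207 Vmn1r and 119 Vmn2r genes.

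The assay was ATAC-seq, which reads out the places where Tn5 transposase can insert adapters into open chromatin. The cells were live neural progenitors (labelled NPs) made from Olig2-mKate2, a mouse embryonic stem cell reporter line in which the red protein mKate2 follows the expression of Olig2, which encodes a bHLH factor that marks progenitors of motor neurons. Cells were taken on day 5 of a differentiation that used SAG (100 nM), which activates Sonic hedgehog signalling, and retinoic acid (100 nM), were sorted for mKate2, and entered the transposition at 50000 cells per library. There was 1 group, LIVE_ATAC, with 2 replicates and no untreated or control group, so no condition was compared. The line is a single reporter line, mKate2 protein can outlast the progenitor state so that newly formed motor neurons may be among the sorted cells, and nothing in the labels says whether the replicates were separate cultures.

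Olfactory receptors of the Olfr family are the odorant receptors of the nose, and the Vmn1r and Vmn2r families are the pheromone receptors of the vomeronasal organ. They are G protein-coupled receptors encoded in large tandem clusters. A mature olfactory sensory neuron expresses a single receptor allele, chosen with the help of enhancers in the clusters that bind LHX2 and EBF and meet in the nucleus, while the remaining receptor genes are packed in heterochromatin. Neural tube progenitors are not chemosensory cells and have no known use for these genes.

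Counts were divided by DESeq2 size factors and by interval length, and this density, in normalised counts per kb, is the level given throughout. The libraries held 31876165 and 31672240 counts in intervals. The 5 checked genes of neural progenitors (Sox2, Pax6, Nes, Olig2 and Nkx6-1) all had an interval over a TSS, at densities from 613 to 1452, and the pluripotency genes Pou5f1 and Nanog had none. With 2 libraries an exact sign-flip test cannot give a p below 0.5, so differences between sets of intervals are given as values with the spread over the libraries (SD, n = 2) and without a test.

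The stretches below show the centres of intervals to which the results return. They are the strongest interval of the set, beside Olfr288, the interval over the coding exon of Olfr94, and the strongest interval of the class I receptor cluster, upstream of Olfr545. All are given 5′ to 3′ on the plus strand of GRCm38 (mm10), read from the RefSeq assembly, and capitals mark CpG dinucleotides.
Olfr288 downstream interval, chr15:98181163-98181462: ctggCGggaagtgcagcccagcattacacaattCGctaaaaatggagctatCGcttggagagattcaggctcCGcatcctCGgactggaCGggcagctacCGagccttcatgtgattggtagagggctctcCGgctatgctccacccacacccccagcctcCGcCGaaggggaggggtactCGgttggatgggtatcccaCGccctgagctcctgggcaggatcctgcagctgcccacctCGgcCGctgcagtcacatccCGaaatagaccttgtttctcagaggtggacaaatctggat
Olfr94 coding exon, chr17:37197128-37197427: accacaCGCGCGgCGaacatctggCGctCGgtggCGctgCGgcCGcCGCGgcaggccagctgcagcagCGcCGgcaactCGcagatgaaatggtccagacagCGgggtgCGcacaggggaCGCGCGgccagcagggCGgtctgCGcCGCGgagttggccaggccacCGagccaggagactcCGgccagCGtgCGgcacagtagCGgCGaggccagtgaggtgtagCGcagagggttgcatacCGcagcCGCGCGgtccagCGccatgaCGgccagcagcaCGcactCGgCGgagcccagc
Olfr545 upstream interval, chr7:102512968-102513267: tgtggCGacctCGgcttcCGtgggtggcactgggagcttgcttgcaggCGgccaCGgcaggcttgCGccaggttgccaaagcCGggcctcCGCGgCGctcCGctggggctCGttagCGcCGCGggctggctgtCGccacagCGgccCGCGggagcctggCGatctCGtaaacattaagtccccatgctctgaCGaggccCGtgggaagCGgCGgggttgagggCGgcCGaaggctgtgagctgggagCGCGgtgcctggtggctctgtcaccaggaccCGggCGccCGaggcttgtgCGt
The 300 bases beside Olfr288 held 15 CpGs at a GC content of 59.3%. The Olfr94 stretch held 39 at 73%, and the Olfr545 stretch held 33 at 71.3%.

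A further set shows letters of motifs or genes in place of CpGs. For the intervals beside Olfr126, Olfr750 and Olfr224 the capitals mark motif matches on either strand, and for the interval beside Vmn1r223 they mark the part of a tRNA gene.
Olfr126 downstream interval, octamer ATGCAAAT of POU factors, chr17:37869710-37870009: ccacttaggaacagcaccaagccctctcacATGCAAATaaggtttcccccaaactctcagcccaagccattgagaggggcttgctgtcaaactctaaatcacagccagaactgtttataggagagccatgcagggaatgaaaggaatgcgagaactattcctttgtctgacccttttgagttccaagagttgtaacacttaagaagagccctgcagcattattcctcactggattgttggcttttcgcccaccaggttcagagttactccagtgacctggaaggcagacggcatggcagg
Olfr750 downstream interval, SOX motif ACAATG and LHX homeodomain motif TAATTA, chr14:51054462-51054761: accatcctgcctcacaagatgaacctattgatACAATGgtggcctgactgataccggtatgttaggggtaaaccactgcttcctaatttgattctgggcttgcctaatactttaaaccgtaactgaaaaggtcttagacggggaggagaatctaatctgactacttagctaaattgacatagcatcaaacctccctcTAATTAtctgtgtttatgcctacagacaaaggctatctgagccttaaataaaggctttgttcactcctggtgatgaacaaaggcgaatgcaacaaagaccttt
Olfr224 start, upstream part, SOX motif ACAATG and bHLH motif CAGATG, chr11:58569168-58569422: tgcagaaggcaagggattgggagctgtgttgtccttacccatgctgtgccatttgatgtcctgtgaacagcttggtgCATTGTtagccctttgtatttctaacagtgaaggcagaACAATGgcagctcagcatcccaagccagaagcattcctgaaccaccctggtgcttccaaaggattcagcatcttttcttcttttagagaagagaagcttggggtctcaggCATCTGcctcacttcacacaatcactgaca
Vmn1r223 downstream interval, isoleucine tRNA gene, chr13:23270469-23270768: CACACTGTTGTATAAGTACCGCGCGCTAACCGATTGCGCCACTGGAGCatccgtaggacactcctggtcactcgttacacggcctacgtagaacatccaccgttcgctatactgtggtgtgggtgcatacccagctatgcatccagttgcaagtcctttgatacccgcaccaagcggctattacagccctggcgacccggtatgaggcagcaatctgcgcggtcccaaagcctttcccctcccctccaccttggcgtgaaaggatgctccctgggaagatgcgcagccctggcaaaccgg
The Olfr224 stretch is 255 bases long because the transcribed leader was left out, and it held 0 CpGs, 2 SOX matches and 1 bHLH match.

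Receptor neighbourhoods were thin in accessible intervals, while the intervals that were present had a median density per kb near that of other distal intervals. The neighbourhoods spanned 42.5 Mb and held 8.11 intervals per Mb, against 43.4 per Mb over the other 2353 Mb of the autosomes, a ratio of 0.187. For stronger intervals, those whose mean normalised count was over 100, the numbers were 1.81 and 13.5 per Mb, a ratio of 0.134. Sequence over 200 kb from any protein-coding TSS, the gene deserts, held 21.4 intervals per Mb, so the neighbourhoods were below the deserts as well.

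The shortage covered the whole width of the neighbourhoods and faded outside them. Intervals numbered 8.04 per Mb over the receptor genes themselves, 7.82 up to 5 kb away, 7.01 from 5 to 10 kb and 9.56 from 10 to 20 kb. Beyond the limit of the rule there were 17.7 per Mb from 20 to 50 kb, 30.1 from 50 to 100 kb and 39.8 from 100 to 200 kb. The member nearest to the limit from inside, 19.8 kb from Olfr31, had a density of 81.9, and the nearest interval outside it, 20.1 kb from Vmn1r4, had 59.6.

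**Figure D1:**
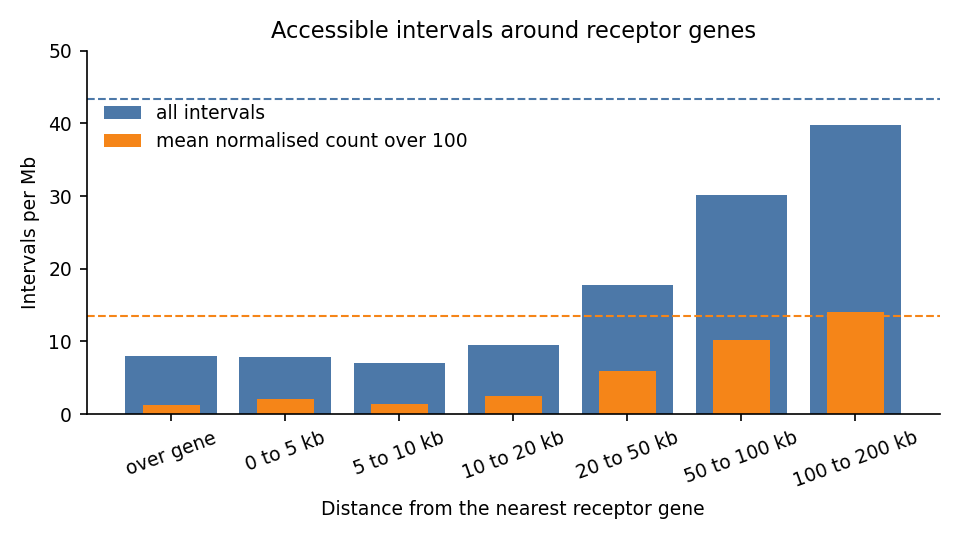
Intervals per Mb (bars, y axis) against distance from the nearest autosomal receptor gene (x axis), without intervals over a TSS of other protein-coding genes; wide bars are all intervals, narrow bars those with a mean normalised count over 100, and dashed lines the rest of the autosomes outside 20 kb (43.4 and 13.5 per Mb). All 4 bins within 20 kb stay under 10 per Mb, and the bin from 100 to 200 kb reaches 39.8.

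The 3 families differed in how many intervals they had. Olfr neighbourhoods held 9.78 intervals per Mb (269 members), Vmn1r neighbourhoods 5.17 (38 members) and Vmn2r neighbourhoods 4.88 (38 members). Among other chemosensory families counted the same way, the bitter taste receptor genes (Tas2r) had 9.07 per Mb, the trace amine-associated receptor genes (Taar) 26.2, the formyl peptide receptor genes (Fpr) 3.34, and the sweet and umami receptor genes (Tas1r) 119, but these families covered between 0.151 and 0.882 Mb and between 1 and 18 intervals each.

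Receptor clusters are rich in repeated and duplicated sequence, in which reads cannot be placed with certainty. Of 50-base words sampled across the neighbourhoods, 76.0% occurred once in the chromosomes, against 89.6% across the rest of the autosomes. The share was 83.0% around Olfr genes, 61.0% around Vmn1r and 65.2% around Vmn2r genes. Counted per Mb of sequence with words that occur once, the ratio of neighbourhoods to the rest was 0.221 in place of 0.187, and per Mb of sequence not masked as repeats it was 0.245. The members themselves were mostly in unique sequence: 15 of 345 (4.35%) had fewer than 50% of their words occurring once, at a median density of 77.7 against 125 for the others, and in a sample of 511 other distal intervals the share was 1.96%. The read length and the treatment of multiply mapping reads are not given in the sources used here.

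Few receptor genes had an accessible start. An interval covered an annotated TSS of 17 of 1413 receptor genes (1.2%, 95% Wilson interval 0.753 to 1.92%, which covers counting error only), against 14137 of 19394 other autosomal protein-coding genes (72.9%). By family there were 16 of 1087 Olfr genes (1.47%), 1 of 207 Vmn1r genes (0.483%) and 0 of 119 Vmn2r genes, for which the Wilson interval reached 3.13%. The single Vmn1r gene was Vmn1r4, whose start lay under an interval that also covered the TSS of Nt5c3, and that interval was therefore not a member. An interval of any kind lay within 20 kb of 398 receptor genes (28.2%) and of 18164 other genes (93.7%), so that 1015 receptor genes had none.

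Receptor starts also differ from other starts in base composition. In the 300 bases from 250 before to 50 after the start, averaged over a gene's starts, receptor genes had a median GC content of 36.7% and a median of 1 CpG (1412 genes with a coding transcript). Other genes with an interval over a start had 59.7% and 18.2 CpGs, and other genes without one had 48% and 3 CpGs. The 17 receptor genes with an interval stood at 43% and 1.5 CpGs, between the other receptor genes (36.7% and 1 CpG) and other genes without an interval on both measures. What part base composition has in the low number of accessible receptor starts was not tested.

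The 16 members over a receptor start were mostly weak. Olfr224 on chromosome 11 stood far above the rest, with 345 and 353 counts and a density of 678 ± 10.6 in its 515 bp interval (SD, n = 2). Its accessible start is that of an alternative transcript inside the gene, and its upstream part is printed above. It was followed by Olfr15, the start of a receptor gene on chromosome 16, with 64 and 71 counts and a density of 290 ± 21.1.

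The next 8 by density lay between 122 and 197. They were Olfr53 (156 and 185 counts, 197 ± 23.6), Olfr145 (183 ± 21.9), Olfr646 (182 ± 31.2), Olfr658 (179 ± 13.4), Olfr156 (162 ± 10.1), Olfr464 (151 ± 15.8), Olfr11 (126 ± 0.0728) and Olfr1432 (122 ± 41.3). These steps from gene to gene were mostly smaller than the SDs, so the order among them is not resolved beyond the spread of the libraries. The last 6 (Olfr598, Olfr557, Olfr538, Olfr1033, Olfr556 and Olfr46) had densities from 61.7 to 107. The median over the 16 was 143 ± 3.71, against a median of 799 over all intervals that cover a TSS, and the highest receptor start was below that value in both libraries. A mean normalised count over 100 was reached by 4 of the 16. Olfr1432 had the largest spread, 75 and 46 counts, and 46.4% of its words occurred once.

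**Figure D2:**
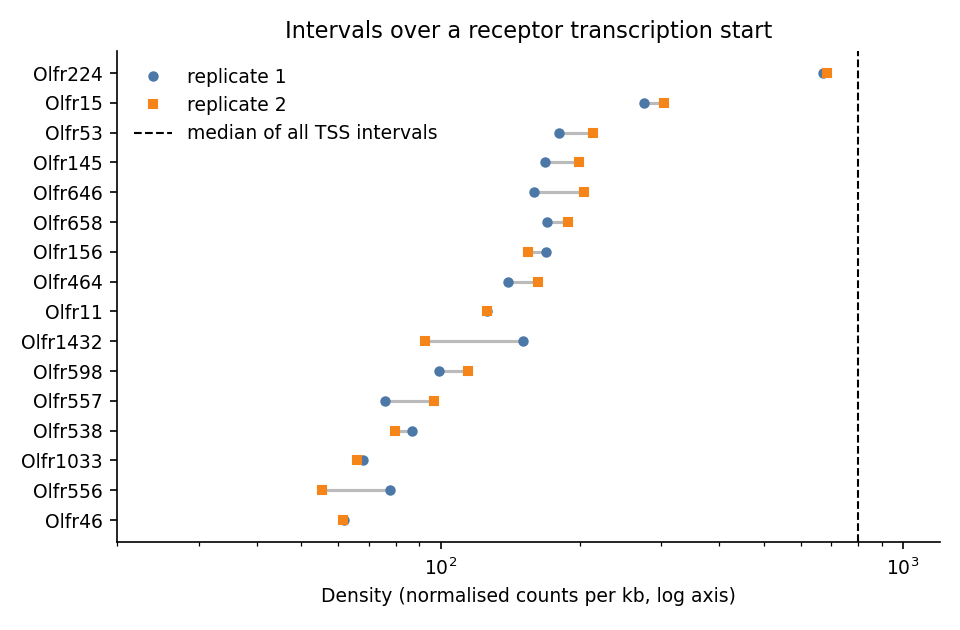
Density in each library (x axis, normalised counts per kb, log axis) of the 16 member intervals over a receptor TSS, named by gene (y axis); circles are replicate 1, squares replicate 2, and the dashed line is the median of all TSS intervals (799). Olfr224 sits just below the line at 670 and 685, and every other gene is at 305 or less in both libraries.

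The median density of members was close to that of distal intervals elsewhere. Only places called as peaks form intervals, so sites too weak to be called are missing from both sets. The median density of the 345 was 119 ± 0.672, against 124 ± 2.06 over the 102108 other autosomal intervals that covered no protein-coding TSS, a ratio of 0.961 ± 0.0214. It was below 1 in both libraries (0.976 and 0.946). Against intervals over 200 kb from a TSS the ratio was 1.02 ± 0.0356, which lay on both sides of 1 in the libraries (1.04 and 0.990). The upper range was thinner: 77 members (22.3%, Wilson interval 18.2 to 27.0%) had a mean normalised count over 100, against 31.2% of other distal intervals. The median normalised count per interval, not divided by length, was 44.0 ± 0.0254 against 54.5 ± 0.676, a ratio of 0.807 ± 0.0105.

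Members were also shorter, with a median of 389 against 464 bp, and poorer in G and C, with 46.3 against 48.5%. Together they held 0.125% of all counts in intervals (0.126 and 0.125% in the libraries). At the low end, 18 members had a mean normalised count under 10. A single member, of 281 bp near Olfr1258 on chromosome 2, had 0 counts in each library, a value that leaves room for as many as 3. The interval set was built over 5 libraries, of which 3 are not analysed here.

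By family, the median density was 119 ± 1.47 for members nearest an Olfr gene, 129 ± 10.7 nearest a Vmn1r gene and 116 ± 7.70 nearest a Vmn2r gene. These values differed by no more than about the spread between the libraries. Of the members, 117 lay upstream of the nearest receptor gene, 128 downstream and 100 over it. The 100 over a receptor gene had a median density of 96.8 ± 4.01, below the 144 ± 3.19 of the 91 members at 10 to 20 kb. These SDs cover the libraries and not the spread among intervals, which overlapped widely. The quartiles were 68.0 and 145 over a receptor gene, and 85.7 and 224 at 10 to 20 kb.

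Whether the neighbouring genes were receptor genes went with both the number and the median density of members. A member was called interior when the protein-coding genes on both sides of its centre, or the gene around it, were receptor genes, and edge otherwise. An edge member could therefore lie within the span of a cluster, next to a non-receptor gene. The 46 protein-coding genes with a suffixed receptor name, such as Olfr548-ps1, counted as non-receptor genes. Edges held 18.0 intervals per Mb (137 members in 7.61 Mb) and interiors 5.96 (208 members in 34.9 Mb). Both were below the 43.4 of the rest of the autosomes. The median density was 139 ± 2.59 at edges and 110 ± 0.886 in interiors, a ratio of 1.28 in replicate 1 and 1.23 in replicate 2. Here too the SDs cover the libraries and not the spread among intervals, which overlapped widely. The quartiles were 79.5 and 221 at edges and 78.1 and 179 in interiors, so the lower quartiles were nearly equal. Words occurring once made up 72.9% of edge and 76.6% of interior sequence. The part of sequence repetition in the differences between edge and interior was not tested. Members under 5 kb from another gene's TSS (25 of 345) had a median density of 182, and without these the ratio of edge to interior was 1.24.

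**Figure D3:**
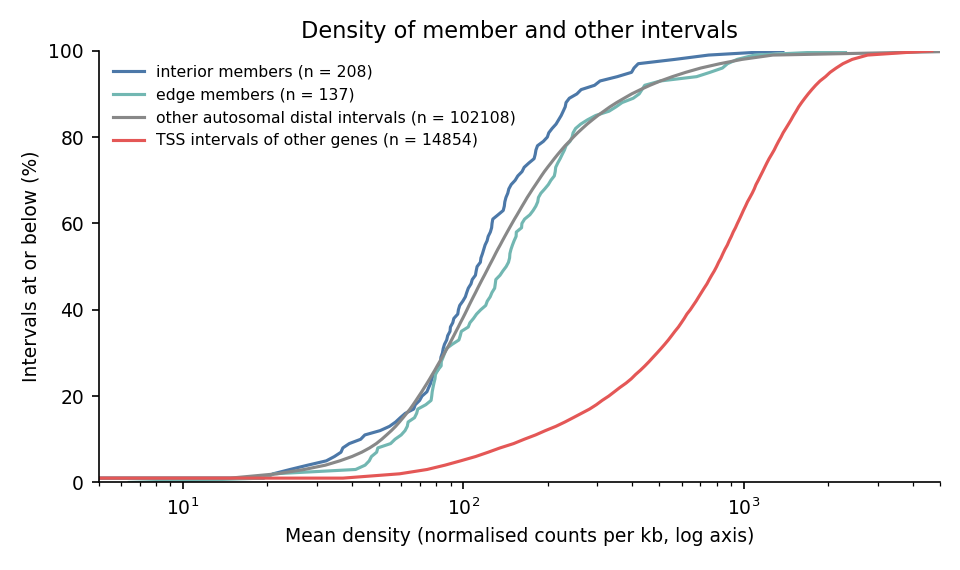
Cumulative share of intervals (y axis, %) at or below a mean density (x axis, normalised counts per kb, log axis) for interior members, edge members, other autosomal distal intervals and intervals over a TSS of non-receptor genes. The interior curve lies to the left of the other distal intervals above their medians, the edge curve lies near or to the right of them, and the TSS curve is far to the right of all 3.

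Most of the strongest members were edge members. Of the 10 highest densities 7 were edge members, beside 137 of all 345. Among these 7, the intervals near Olfr750 and Olfr1423 lay within the span of their clusters. Of the same 10 densities, 4 were within 5 kb of the TSS of a non-receptor gene, beside 25 of all 345. Only 9 members were above the median of all TSS intervals. The top was an intergenic interval of 695 bp at the end of the small Olfr cluster of chromosome 15, at chr15:98180965-98181659, 4.35 kb downstream of Olfr288. It had 1628 and 1577 counts and a density of 2306 ± 53.2. The third lay in the same stretch, 17.5 kb from Olfr288, over the coding exon of Ccdc184, a coiled-coil protein gene, and 0.246 kb from its TSS, with 1281 and 1212 counts and a density of 1125 ± 44.7.

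The second interval of the set lay inside a cluster. It covered most of the large coding exon of Olfr94 on chromosome 17, at chr17:37196813-37197742, with 1261 and 1304 counts and a density of 1379 ± 31.9. The ubiquitin-like gene Ubd started 2.92 kb away. That exon had 86 CpGs, or 74.3 per kb at a GC content of 61.6%, the highest CpG content among the longest coding exons of 1411 receptor genes, whose median was 6.41 per kb at 43.2%. The neighbouring Olfr95 was the third in that order with 44.9 per kb and was also covered by a member. Members lay over coding sequence of 23 receptor genes in all, with a median of 9.65 CpGs per kb against 6.39 for the other 1388. Of the 12 receptor genes with the most CpGs per kb members covered 2, beside 23 of all 1411. In the other direction Olfr298, picked out after its values were seen, had 368 and 411 counts and a density of 536 ± 41.5 over a coding exon with 4.02 CpGs per kb.

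Further strong members were spread over several clusters. Near Rnase12, a ribonuclease gene 2.10 kb away, an interval 11.2 kb downstream of Olfr750 on chromosome 14 had 1085 and 1102 counts and a density of 1033 ± 10.8. At 10.4 kb from Olfr221, an interval over the start of the long noncoding RNA gene Gm49256, and 2.03 kb from the zinc finger gene Zfp219, had 914 ± 20.5. On chromosome 19 a pair of intervals 19.2 and 18.3 kb downstream of Olfr1423 had 876 ± 43.2 and 858 ± 57.5.

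Among interiors, the interval 13.1 kb upstream of Olfr545 had 705 counts in each library and a density of 827 ± 0.478, in CpG-rich sequence printed above. The interval 17.5 kb downstream of Olfr126 on chromosome 17 had 467 and 497 counts and a density of 754 ± 32.8. It was 386 kb from the nearest TSS of a non-receptor gene, H2-M2, and its centre held the octamer.

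Several strong members lay over transfer RNA genes, a feature looked up in the RefSeq annotation after the values were seen. Of the 345 members 7 (2.03%) covered at least 1 tRNA gene, against 142 of 102108 other distal intervals (0.139%). All 7 were edge members as defined above. Apart from the interval downstream of Vmn1r223, they lay within the span of their clusters. Of 15 tRNA genes in the neighbourhoods 14 lay under an interval (93.3%), and of 371 elsewhere 253 did (68.2%). The neighbourhoods held 0.353 tRNA genes and 8.11 intervals per Mb, and the rest of the autosomes 0.158 and 43.4. The shares of 2.03 and 0.139% depend on both of these numbers, so they do not describe the intervals alone. tRNA genes are transcribed by RNA polymerase III and are needed in every cell. The median density of the 7 members was 481 ± 23.5, against 118 ± 0.645 for members without a tRNA gene; among other distal intervals the values were 553 ± 26.5 and 124 ± 2.05. The range over the 7 was 304 to 876.

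The 3 longest members all covered tRNA genes. The 3390 bp interval near Olfr1368 on chromosome 13 held tRNA genes for glutamic acid and phenylalanine (1112 and 949 counts, density 304 ± 34.2). The 3320 bp interval at Olfr750 held 3 (1650 and 1541 counts, 481 ± 23.5), and the 3046 bp interval near Olfr1423 held 5, for lysine, leucine, arginine and valine (2761 and 2577 counts, 876 ± 43.2). The interval downstream of Vmn1r223, the strongest of its cluster with 626 and 606 counts and a density of 816 ± 19.2, covered the isoleucine tRNA gene printed above. Without intervals over tRNA genes the ratio of edge to interior density was 1.22 in place of 1.26.

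**Figure D4:**
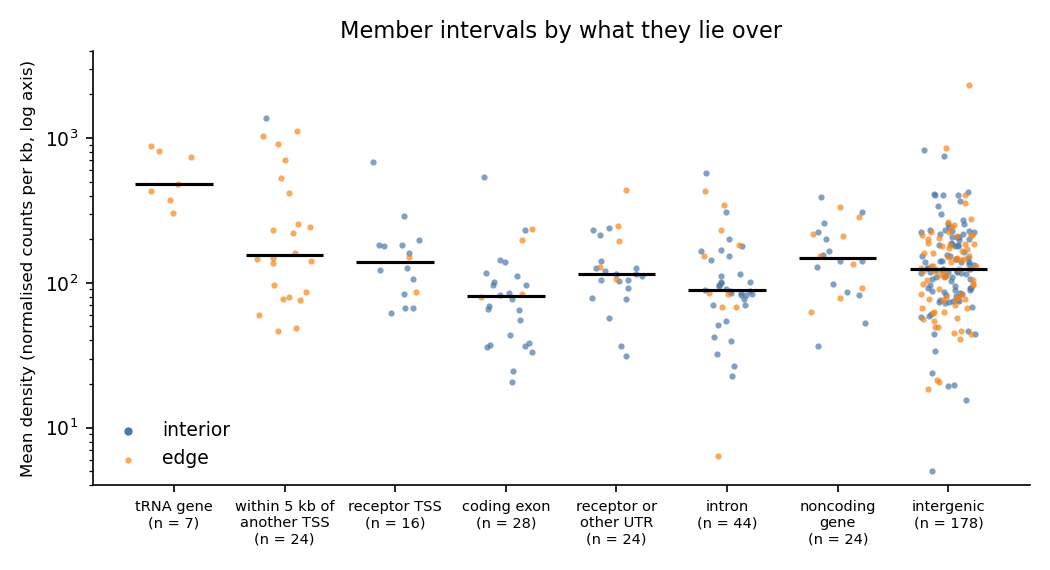
Mean density (y axis, normalised counts per kb, log axis) of each of the 345 members, grouped by what they lie over (x axis) in the order of priority from left to right, apart from a member at 0 counts, which is drawn at 5; blue points are interior, orange points edge members, and black lines are medians. All 7 tRNA members are above 300, and coding exons have the lowest median (81.3).

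By annotation, 195 members were intergenic, 49 in introns, 32 over coding exons, 28 over untranslated regions, 25 over noncoding genes and 16 over a receptor start. The median density was 128 ± 2.71 for intergenic members, 95.3 ± 1.75 in introns, 91.4 ± 9.62 over coding exons and 155 ± 8.85 over noncoding genes, so members in introns and coding exons of the genes were the weaker ones. Over 50% of the length was masked as repeat in 62 members.

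Enhancers of olfactory receptor genes curated in RefSeq were mostly without an interval. These elements, named after Greek islands, act in olfactory sensory neurons. Of 11 on the autosomes 3 overlapped an interval, against 586 of 865 (67.7%) of the other curated regions, which were chosen by very different studies. Of the 7 within 20 kb of a receptor gene only Ikaria did, through a member of 87 and 92 counts and a density of 49.5 ± 1.93, below the median of members in both libraries. The H element, the first one described, lay 51.5 kb from Olfr1507 and thus outside the rule, under an interval of 51 and 65 counts and a density of 98.1 ± 16.7. Sifnos, also outside the rule, had 37 and 31 counts and a density of 138 ± 17.3. Rhodes, Symi, Crete, Tinos, Lipsi, Sfaktiria, Kefallonia and Fourni had no interval over them, and for Rhodes the nearest interval was 23.1 kb away.

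Clusters were formed by joining receptor genes less than 500 kb apart. This gave 72 clusters, of which 45 had 5 or more genes and held 1368 genes and 304 members. None of the 45 reached the 43.4 intervals per Mb of the rest of the autosomes. Among the clusters with fewer genes, each over a short length, some were above it. They were Vmn1r1 alone (80.3 per Mb, 4 members), Olfr1373 to Olfr1371 (61.1, 5 members) and Olfr372 to Olfr374 (59.8, 7 members). The class I cluster on chromosome 7, which encloses the beta-globin genes and carries the receptors most like those of fish, had the most members, with 26 around 124 genes (Olfr543 to Olfr692) or 11.3 per Mb. It also had 5 of the 17 genes with an accessible start. Members there included an interval of 172 bp within the curated locus control region of the beta-globin genes, 18.2 kb from Olfr66, with 41 and 43 counts and a density of 244 ± 8.08. Another lay over a curated hypersensitive site of that locus, 1.43 kb from Olfr633, with 45 and 37 counts and a density of 91.7 ± 12.7.

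The largest cluster, 217 genes on chromosome 2 from Olfr987 to Olfr1272, had 24 members or 5.06 per Mb, with a median density of 91.6. Its strongest member, 8.37 kb upstream of Olfr1066 over the pseudogene Olfr1069-ps1, had 115 and 86 counts and a density of 258 ± 52.7. The mixed cluster of chromosome 10 (Olfr9 to Vmn2r87) and that of chromosome 13 (Olfr1370 to Vmn1r223) had 19 members each, at 13.5 and 14.5 per Mb. In the former the strongest was 0.299 kb downstream of Vmn2r87 over the processed pseudogene Gm18755, with 229 and 211 counts and a density of 392 ± 22.9. The cluster of chromosome 9 (Olfr160 to Olfr986) had 18 members or 7.51 per Mb, led by an interval 8.22 kb downstream of Olfr875 with 471 and 508 counts and a density of 422 ± 22.3.

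Among the 45 clusters of 5 or more genes, small ones had the most intervals for their length. They were Olfr288 to Olfr279 on chromosome 15 (35.3 per Mb, 9 genes), Olfr70 to Olfr155 on chromosome 4 (34.5, 6 genes) and Olfr1416 to Olfr12 on chromosome 1 (34.3, 8 genes). At the other end, 5 of the 45 clusters had no member. In 3 of these, all Olfr clusters, the share of unique words was near the 83.0% of Olfr neighbourhoods: Olfr338 to Olfr368 on chromosome 2 (27 genes, 80.5% of words occurring once), Olfr172 to Olfr209 on chromosome 16 (24 genes, 78.7%) and Olfr164 to Olfr171 on chromosome 16 (8 genes, 78.9%). In the Vmn2r29 to Vmn2r37 cluster of chromosome 7 (17 genes) it was 13.9%, and in the cluster from Vmn2r46 to Vmn1r71 (13 genes) it was 58.5%. The cluster of 65 genes from Vmn1r91 to Vmn1r183 had a single member, with 22.8% of words occurring once. The part of sequence repetition in the low numbers of the last 3 was not tested.

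**Figure D5:**
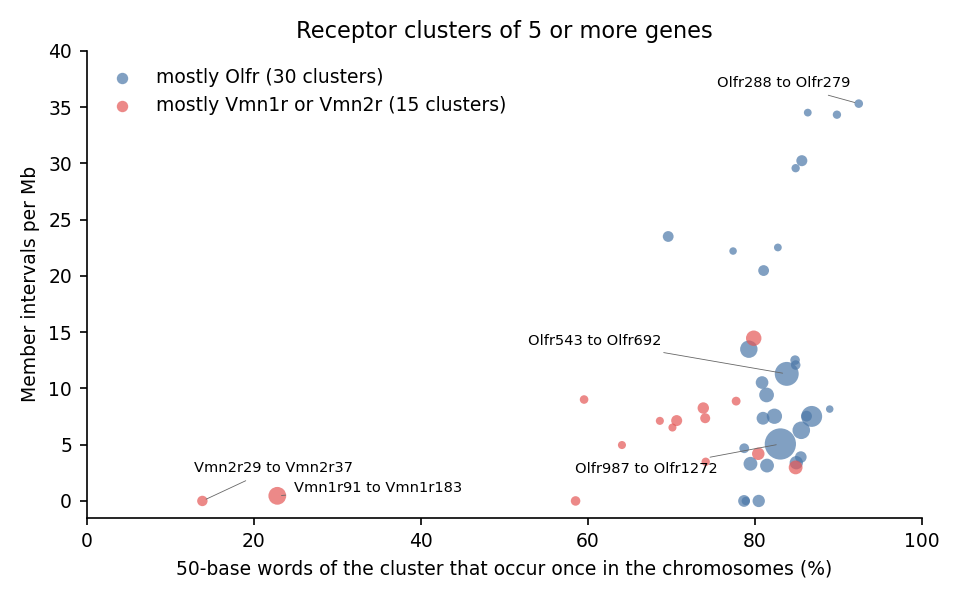
Member intervals per Mb (y axis) against the share of 50-base words that occur once in the chromosomes (x axis, %) for the 45 receptor clusters of 5 or more genes, with point area growing with the number of genes; blue clusters are mostly Olfr and red ones mostly Vmn1r or Vmn2r. The 2 clusters under 30% have 0 and 0.456 members per Mb, while clusters between 78.7 and 92.5% range from 0 to 35.3.

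The counts of members agreed between the libraries within the same noise as elsewhere. In an exact binomial test of the 2 counts of each interval, with Benjamini-Hochberg adjustment over all 119502, 0 members and 0% of all intervals passed 0.01. At an unadjusted p under 0.05 there were 23 of 345 members (6.67%), against 8.39% of all intervals. Over 1.5-fold apart were 0 of 77 members with a mean normalised count over 100, against 0.108% of such intervals. The squared correlation between replicates across members was 0.947, and 0.946 across other distal intervals.

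Among members over 100 the largest differences were at the interval of Olfr1066 above, at one 8.19 kb downstream of Olfr1513 and 9.74 kb from the zinc finger gene Sall2 (150 and 114 counts, density 165 ± 32), and at one 6.20 kb upstream of Olfr1371 (141 and 110 counts, 218 ± 38.2). All 3 were higher in replicate 1.

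Near interval centres, motif letters occurred in members about as often as in other distal intervals. In the 300 bases around the centre, searched on both strands, the SOX motif ACAATG was present in 26.1% of members (Wilson interval 21.7 to 31.0%) and 23.4% of other distal intervals, and the bHLH motif CAGATG, bound by factors such as OLIG2, in 33.3 and 29.2%. The motifs of the factors that act at receptor enhancers in the nose were no more frequent, with 6.67 and 7.75% for the LHX homeodomain motif TAATTA and 8.12 and 9.09% for the EBF motif CCCNNGGG. The core CAGNGGGC of the insulator protein CTCF was in 6.96 and 8.24%, with 10.2% at edges and 4.81% in interiors. The octamer ATGCAAAT was in 3.19 and 2.24%. For CTCF, EBF, LHX, SOX, bHLH and octamer alike the share in other distal intervals fell within the Wilson interval of the members in this window, and none of the motifs contains another. Over whole intervals, which are shorter in members, CTCF and EBF letters were less frequent in members. The CTCF core was in 8.99% of members (6.4 to 12.5%) and 14.3% of other distal intervals, and the EBF motif in 12.5% (9.39 to 16.4%) and 16.8%.

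The regulators of receptor choice, in contrast to the receptors, had open starts in these cells. All 15 genes of that list had an interval over a TSS, beside 72.9% of all non-receptor autosomal protein-coding genes. Their median density was 841, near the 799 of all TSS intervals. They included Lhx2 (678 ± 37.0) and Ldb1 (1007 ± 34.9), which encode the LHX2 homeodomain factor and its cofactor, and Ebf1 (790 ± 8.99). The heterochromatin protein genes Cbx5 (1459 ± 42.2) and Lbr (1989 ± 42.2), the latter coding for the lamin B receptor, were above that median, and so was the histone methyltransferase gene Ehmt1 (1227 ± 74.7). The 3 lowest of the list were the histone methyltransferase genes Setdb1 (398 ± 48.9) and Ehmt2 (342 ± 18.2) and the homeobox gene Emx2 (390 ± 20).

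Genes of the olfactory signalling cascade were mixed. Of 11, 7 had an interval over a TSS, beside the 72.9% of all non-receptor autosomal protein-coding genes. Omp, the marker protein of mature olfactory neurons, the channel subunit gene Cnga4, the receptor transport gene Rtp1 and Stoml3 had none. Adcy3, an adenylate cyclase that is also a protein of neuronal cilia, had 539 ± 16.2, and Ric8b, a G protein exchange factor, had 1581 ± 96.1, whereas Rtp2 had 31.2 ± 23.4 and Cngb1 113 ± 0.0652. Of 7 vomeronasal genes, Trpc2, the cation channel of vomeronasal neurons, was the one with no interval, and the G protein genes Gnai2 (1731 ± 14.2) and Gnao1 (973 ± 0.373) were open.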

How the data were processed

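ATAC-seq libraries of 2 LIVE_ATAC replicates were analysed. The authors deposited raw read-pair counts per consensus interval, made with featureCounts 2.0.1 on mm10 after peak calling by MACS in the nf-core atacseq pipeline, with intervals drawn up over 5 libraries; 3 columns that belong to no sample given here were not used. The submitters' processing notes name DESeq2. Densities were computed here as counts over the size factor from DESeq2 1.42.0 (R 4.3.3; other steps in Python 3.11.15) and over interval length, with TMM factors from edgeR 4.0.16 as an alternative. Genes and TSSs came from GENCODE vM21 (starts of protein-coding transcripts), sequence, tRNA genes and curated enhancers from RefSeq GRCm38. Uniqueness was the exact occurrence of 50-base words on both strands of the chromosomes, sampled every 250 bases in neighbourhoods and every 10000 elsewhere. Simulated data for library 2 against library 1 covered 119502 intervals and were drawn as Poisson counts, the spread that the binomial test assumes. Changes were placed only in intervals with a mean normalised count over 100. There the binomial test recovered 66 of 66 intervals changed 2-fold and 45 of 67 changed 1.5-fold. Of the 345 members 77 were over that limit. Recovery at lower counts, or with more spread between libraries than Poisson counts have, was not simulated. Named intervals were the 10 densest, the 10 densest over receptor starts, the densest of the 5 fullest clusters, the 3 with the largest replicate difference over 100 and the 3 longest. Members, gene lists and tests were chosen with earlier results of these data known. Spread between replicates may be technical.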

Additional observations from a re-analysis of the deposited data

How the results depend on the processing

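Scaling by TMM factors or total counts left the count of differing members at 0. The ratios of member to other distal density (0.961) and of edge to interior density are taken within each library. Scaling factors cancel in them, so these 2 settings could not change them and are no check of them. Leaving out either replicate gave 0.946 to 0.976 for that ratio, 1.23 to 1.28 for edge over interior density, 20.9 to 24.1% of members over 100 and 0.125 to 0.126% of counts. Intervals with a mean of at least 10 gave an edge ratio of 1.2. A window of 10 kb gave a density ratio of 0.913 and 0.0763% of counts. A window of 50 kb gave 572 members, a density ratio of 0.992, an edge ratio of 1.18, 0.237 for intervals per Mb against the rest, 3.89 for edge over interior per Mb (3.02 as reported) and 0.231% of counts. Gene bodies alone gave 100 members, 0.781, 1.53 and 4.97 for the density, edge and edge-per-Mb ratios, 16% over 100, 0.0271% of counts, and medians of GC -3.43 percentage points and of length -128.5 bp relative to other distal intervals. Counts per interval gave 0.807 and 1.43 for the density and edge ratios. The start of the gene record gave 0.141% of counts. An interval within 1 kb of a start was found for 3.54% of receptor genes. Intervals over 100 gave a per Mb ratio of 0.134, and the lengths of unique and of unmasked sequence, chosen after seeing the data, gave 0.221 and 0.245. Suffixed names taken as receptor genes, an unplanned alternative, gave 353 members, an edge ratio of 1.26 and 3.47 for edge over interior per Mb. In whole intervals the EBF, LHX, SOX and bHLH motifs were in 12.5, 12.2, 35.9 and 43.8% of members and 16.8, 13.3, 35.2 and 44.1% of other distal intervals. The ratios of member to other distal density, edge to interior density and intervals per Mb stayed on their side of 1 under each alternative run for them, whereas the density ratio to gene deserts was above 1 in replicate 1 and below it in replicate 2. Beyond the construction of each setting, the cause was not tested. No paired analysis was possible because LIVE_ATAC was the single group. The median member has 44 counts a library, so small differences between them are not detectable at this depth.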
